A study of Rattus norvegicus with 4 samples.

Results

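Cytosolic ribosomal protein genes were followed in lumbar dorsal root ganglia (DRGs) of rats that had received cisplatin or vehicle. Members were taken from the deposited annotation as protein-coding rows whose symbol is that of a large subunit (Rpl), small subunit (Rps), stalk (Rplp0 to Rplp2) or Rpsa gene, so that kinases and mitochondrial ribosomal proteins were left out. This gave 104 rows of 33506 in the count table and of 22293 protein-coding rows, 68 for the large and 36 for the small subunit. The rows held 83 different symbols, since 11 symbols were shared by 32 rows, among them Rpl39 with 7 rows, Rpl35a with 5 and Rps29 with 4. The rows themselves were chosen by symbol, but the gene family was selected on its counts and log2 fold changes in these same libraries, so the difference between the groups is given here as a description.

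Both groups were wild-type Wistar rats, with 2 libraries each. Cisplatin, a platinum-based chemotherapeutic, was injected into the abdominal cavity on P14 and again on P16, each time at 0.3 mg/kg. PBS was the vehicle. The study describes collection at P23, while the sample labels give 16 days after treatment. Each library pooled several lumbar DRGs of a rat, both sexes were used in the study, and the sources used here do not give the sex of single libraries. Libraries were made from polyadenylated RNA, and counts are whole numbers of reads per gene. Nothing in the sources says that strand was used in counting.

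Ribosomal proteins are the protein part of the ribosome, which in the cytosol consists of a large (60S) and a small (40S) subunit built around ribosomal RNA. Their mRNAs are among the most abundant in most cells, and many begin with a 5′ terminal oligopyrimidine (TOP) tract, a C followed by a run of C and T, through which mTOR signalling controls their translation. In sensory neurons, part of the ribosome pool lies in axons, where local protein synthesis takes place. Mammalian genomes hold many processed copies of these genes without introns, so reads of 1 gene can be assigned to several places.

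The start of the transcribed sequence is shown for 6 members, the 3 genes with the highest log2 fold change among members with at least 1000 counts that carried the most counts of their protein, and the 3 with the highest level per length. In the RefSeq promoter sequences of the GRCr8 build, 48 of the 67 members that carried the most counts of their protein matched an entry by symbol and chromosome. Each line gives 25 bases before and 15 bases from the start, 5′ to 3′ on the strand of the gene, with the run of a C followed by at least 4 C or T near the start in capitals where there was one. The positions are chr9:49143086-49143125 for Rpl31, chr2:177964592-177964631 for Rps27, chr9:1533755-1533794 for Rpl36, chr7:1563483-1563522 for Rpl41, chr1:104748899-104748938 for Rpl13a and chr8:71290858-71290897 for Rplp1, with Rpl31 and Rpl36 on the plus strand and Rps27, Rpl41, Rpl13a and Rplp1 on the minus strand.
Rpl31: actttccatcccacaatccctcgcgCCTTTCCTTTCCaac
Rps27: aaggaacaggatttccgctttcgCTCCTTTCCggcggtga
Rpl36: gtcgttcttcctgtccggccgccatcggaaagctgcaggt
Rpl41: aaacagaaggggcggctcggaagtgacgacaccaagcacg
Rpl13a: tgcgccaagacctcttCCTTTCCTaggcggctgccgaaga
Rplp1: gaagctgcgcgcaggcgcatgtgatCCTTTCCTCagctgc
The first 3 are the genes with the high log2 fold changes and the last 3 the most abundant. Rpl36 and Rpl41 have no capitals, since neither held the run within the window searched around the start. The run lay within 10 bases before and 15 bases from the start in 34 of the 48 matched members (70.8%), and in 28.6% of the 24206 promoters whose symbol is given once. In a narrower window of 9 bases, from 2 before to 7 after the start, 26 members (54.2%) and 8.33% of all promoters held it. The other 14 matched members, Rpl36 and Rpl41 among them, did not hold it in the wider window, which says only that these letters were not there. The median log2 fold change was 0.49 in the 34 members with the run and 0.35 in the 14 without it. Values ran from -2.71 (Rpl3l) to 1.63 (Rpl31) with the run and from -0.03 (Rps19) to 1.33 (Rpl36) without it. The difference was not tested. These windows were searched on the strand of the gene only.

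The total count was between 21384801 and 25618417 per library. The libraries differed in ways the treatment does not define. The Y-linked gene Eif2s3y had 2103, 2371 and 2195 counts in vehicle replicate 1 and cisplatin replicates 1 and 2, and 0 in vehicle replicate 2. Y-linked Kdm5d and Uty were likewise at 0 in vehicle replicate 2 alone, so Y-linked counts were not balanced between the groups. Summed over 9 skeletal muscle markers, vehicle replicate 1 held 786 CPM and the other libraries 28.3 to 73.7 CPM (counts scaled to the same TMM-adjusted library size), and over 8 spinal cord glia markers 179 CPM against 31.9 to 49.2 CPM. Markers of sensory neurons summed to 33562 and 25761 CPM in the vehicle and 41232 and 29466 CPM in the cisplatin libraries, and none of the 16 was at 0. Of these 16 markers, 15 had a log2 fold change above 0, with a median of 0.20, though the sums of the groups overlapped. Over 14 macrophage and leukocyte markers the sums were 178 and 197 CPM in the vehicle and 240 and 257 CPM in the cisplatin libraries. These sums were higher in the cisplatin libraries, as the members were, and Lyz2 and Cd74 had the highest CPM in them. Of the 13 such markers tested, 9 had a log2 fold change above 0. Cd163, Aif1, Ptprc (the gene of CD45) and Csf1r had -0.70, -0.32, -0.20 and -0.05. Over 9 Schwann cell markers they were 27261 and 63997 CPM in vehicle replicates 1 and 2 and 17889 and 51953 CPM in cisplatin replicates 1 and 2, higher in the libraries numbered 2 of each treatment. With the most abundant Schwann cell marker added, 10 were tested, 0 had a log2 fold change above 0, and the median was -0.40. The part of these differences in the results below was not tested. In such whole tissue, more RNA per cell and more cells of a type cannot be told apart.

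Ribosomal protein genes as a group had higher counts in cisplatin-treated than in vehicle-treated rats. Of the 104 rows, 87 passed edgeR's filter on low counts, and a row that passed only through one group had to differ, so the numbers that follow are not about all members. Among these 87, 77 had a log2 fold change above 0, against 49.1% of all 14719 genes tested. Their median log2 fold change was 0.50, with quartiles of 0.28 and 0.76, beside a median of -0.01 over all genes tested. In 62 rows both cisplatin libraries lay above both vehicle libraries, in 3 rows both lay below, and in 22 rows the groups overlapped. In 35 rows the fold change was at least 1.5 upward, against 7.19% of all genes, and standard errors of single rows ran from 0.18 to 1.30. Over all genes tested, 20.6% had both cisplatin libraries above both vehicle libraries.

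edgeR's quasi-likelihood test called 0 of the 87 rows when a 1.5-fold difference and an adjusted p (Benjamini-Hochberg) below 0.05 were both required, and 0.00679% of all genes in either direction. With the unadjusted p in its place, 22 rows were higher and 0 lower, where 2.8% of all genes were higher and 8.12% passed in either direction. DESeq2 called 1 row, Rps27, while it called 0.238% of the same genes higher. With 2 libraries against 2, a single gene cannot go below p = 0.333 in an exact permutation test (two-sided), and p-values measure only the spread between these libraries. A correction for gene length lowered the median of the 87 rows to 0.23 and the number of rows with both cisplatin libraries on top to 36, where 19.5% of all genes had them on top after the same correction. Without cisplatin replicate 2 the median was 0.32.

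As a share of all counts, the 104 rows held 1.44% in vehicle replicate 1 and 1.59% in vehicle replicate 2, against 1.89% and 2.12% in the cisplatin libraries. The share was thus 1.51 ± 0.104% (SD, n = 2) in vehicle-treated and 2.01 ± 0.162% (SD, n = 2) in cisplatin-treated rats, and the groups did not overlap. Mitochondrially encoded protein-coding genes, which are not members, also took a larger share in cisplatin-treated rats, with 1.46% and 2.52% in the vehicle and 5.38% and 4.68% in the cisplatin libraries.

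**Figure D1:**
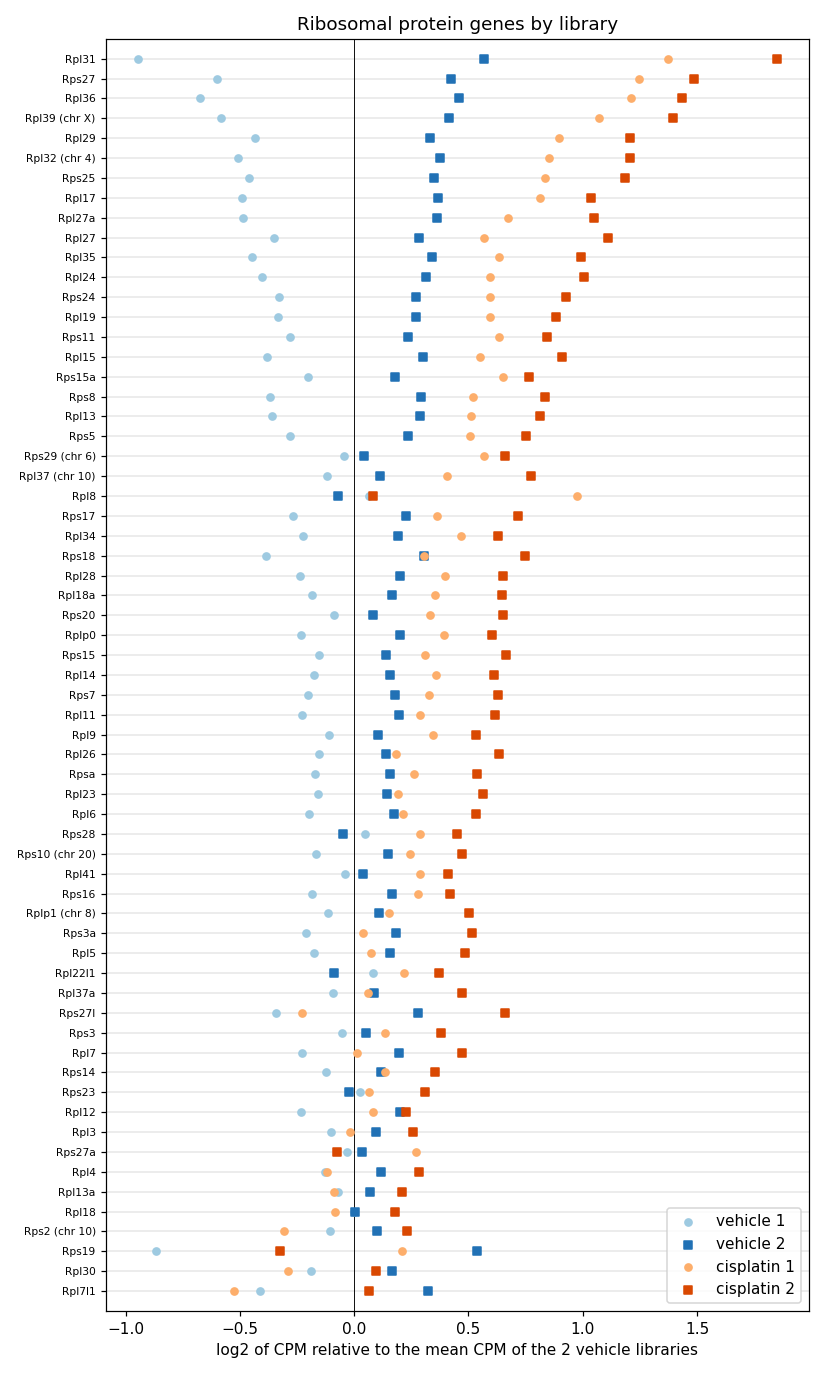
Each point is a library, plotted as log2 of its CPM relative to the mean of the 2 vehicle libraries, for the 63 members with at least 1000 counts over the libraries that carry the most counts of their protein, ordered by log2 fold change (1.63 for Rpl31 at the top, -0.20 for Rpl7l1 at the bottom). In 48 of these rows both cisplatin libraries lie to the right of both vehicle libraries, and in most rows replicate 2 lies to the right of replicate 1 within each group.

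The order of the libraries was the same in most members, and replicates of the same treatment also differed. Vehicle replicate 2 was above vehicle replicate 1 in 77 of the 87 rows, with a median difference of 0.40 in log2 CPM. Cisplatin replicate 2 was above cisplatin replicate 1 in 80 rows, with a median of 0.32. These differences within a treatment are close in size to the median log2 fold change between treatments. The smallest step between treatments, from vehicle replicate 2 to cisplatin replicate 1, had a median of 0.19 with 65 rows higher, and the largest, from vehicle replicate 1 to cisplatin replicate 2, had 0.83 with 81 rows higher. For all genes tested the 6 medians lay between -0.02 and 0.04.

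**Figure D2:**
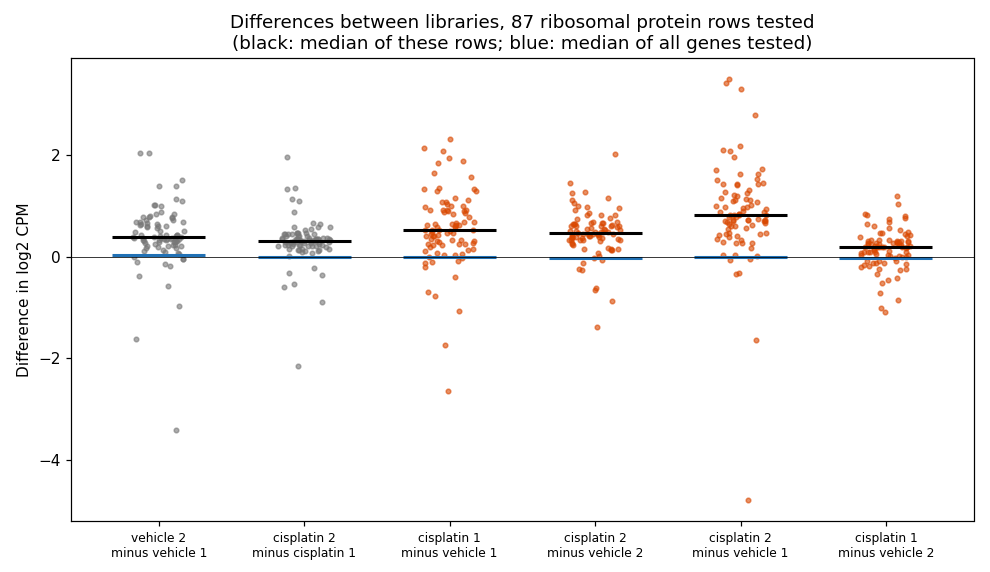
Points are the 87 ribosomal protein rows tested, plotted as the difference in log2 CPM between each pair of libraries (grey within a treatment, orange between treatments); black lines mark their median and blue lines the median of all genes tested. The medians of the rows are 0.40 and 0.32 within a treatment and 0.19 to 0.83 between treatments.

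Rpl31, which encodes a protein of the large subunit beside the exit of the peptide tunnel, had the highest log2 fold change among members with more than 1000 counts. Rpl31 (ENSRNOG00000013508; chromosome 9, 46086984 to 46090997, Rnor_6.0) had 36.2 CPM in vehicle replicate 1 and 103 CPM in vehicle replicate 2, against 180 and 251 CPM in the cisplatin libraries. This amounted to a log2 fold change of 1.63 (standard error 0.51), and vehicle replicate 1 was the lowest of the libraries by far. Rps27 (ENSRNOG00000016961; chromosome 2, 189572176 to 189573280), the gene of a zinc-binding protein of the small subunit, had 31.0 and 63.0 CPM in the vehicle and 111 and 132 CPM in the cisplatin libraries, with a log2 fold change of 1.37 (standard error 0.36). Rpl36 (ENSRNOG00000033473; chromosome 9, 10441259 to 10441834) had 73.4 and 161 CPM in the vehicle and 271 and 317 CPM in the cisplatin libraries, with a log2 fold change of 1.33 (standard error 0.39). In each of these genes the groups did not overlap, and the vehicle replicates differed from each other at least 2-fold.

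The other members with a log2 fold change above 1 and more than 1000 counts were Rpl39, Rpl29, Rpl32 and Rps25, named here after their values were seen, and the Rpl7a row described with the copies. Rpl39 (ENSRNOG00000043348), a very small protein inside the peptide tunnel, had 527 and 828 counts in the vehicle and 1684 and 1954 counts in the cisplatin libraries, with a log2 fold change of 1.24 (standard error 0.36). Rpl29 had 3335 and 4465 counts in the vehicle and 8520 and 9779 counts in the cisplatin libraries, with a log2 fold change of 1.06 (standard error 0.32). Rpl32 on chromosome 4 had 1.04 (standard error 0.34) and Rps25, which encodes a protein of the small subunit that several viral internal ribosome entry sites need, 1.02 (standard error 0.32). In all of these the groups did not overlap.

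Among the well-covered members, several abundant large subunit genes differed little between the groups. Rpl13a, which also takes part in the repression of inflammatory mRNAs, had 649 and 715 CPM in the vehicle and 641 and 789 CPM in the cisplatin libraries, with a log2 fold change of 0.07 (standard error 0.26). Rpl4 had 519 and 616 CPM in the vehicle and 522 and 691 CPM in the cisplatin libraries (log2 fold change 0.10, standard error 0.27), and Rpl3, which reaches towards the peptidyl transferase centre, had a log2 fold change of 0.13 (standard error 0.24). In each of these genes the groups overlapped. Rpl18 had a log2 fold change of 0.05 (standard error 0.21) and Rps2 on chromosome 10, a protein at the mRNA entry of the small subunit, -0.01 (standard error 0.26). Rpl3, Rpl4 and Rpl18 were named after their values were seen, and with the gene length correction their values were -0.01, -0.04 and -0.24. The direction of Rpl13a turned with the gene length correction, to -0.22, and without cisplatin replicate 2, to -0.09, and that of Rps2 turned without cisplatin replicate 1, to 0.24, and without vehicle replicate 2, to 0.10.

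Levels between members were compared per length, as FPKM (the authors' read density, scaled to gene length and sequencing depth). Rpl41, whose product is the smallest ribosomal protein, was highest, with 1126 and 1176 FPKM in the vehicle and 1410 and 1538 FPKM in the cisplatin libraries. Rpl13a followed with 1038 and 1133 FPKM in the vehicle and 1024 and 1262 FPKM in the cisplatin libraries, and Rplp1 with 841 and 972 FPKM in the vehicle and 1009 and 1291 FPKM in the cisplatin libraries. The ranges of these 3 genes overlapped, but within each library Rpl41 was above Rpl13a and Rplp1. Rpl13a and Rplp1 changed order between libraries, so the order of this pair was not resolved beyond the spread of the libraries. Rps15 had a mean of 752 FPKM, Rplp0 748, Rps16 734, Rps29 on chromosome 6 731 and Rps18 637 FPKM, with SDs over the 4 libraries of 125 to 194 FPKM, larger than the steps between neighbours in this order. The members tested reached down to 0.46 FPKM, and the lowest rows were mostly copies and tissue-restricted paralogs. Across the 63 well-covered members, the log2 fold change and the mean FPKM had a Spearman's rho of -0.03 over genes, which share the same libraries.

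**Figure D3:**
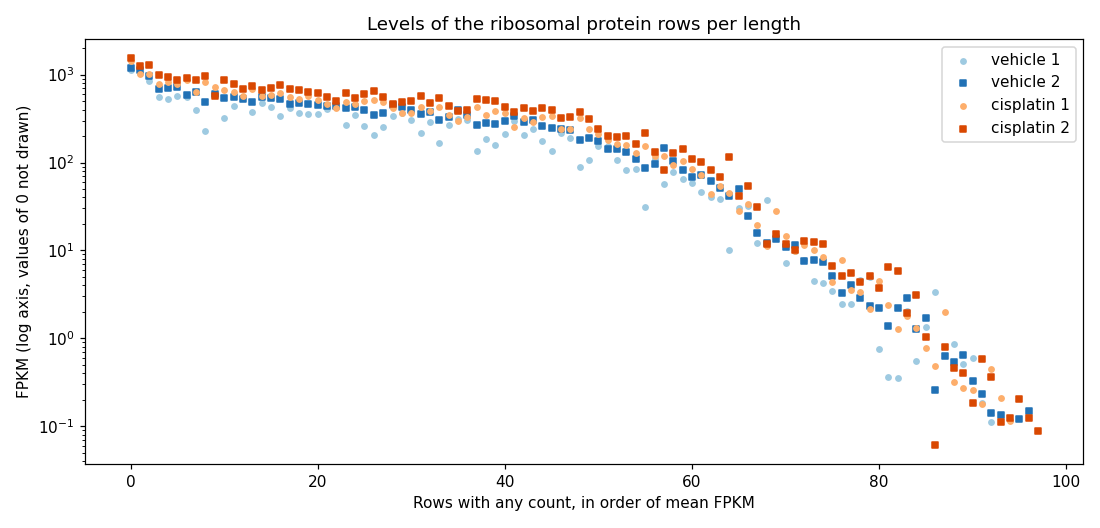
Points are the FPKM of each library (log axis) for the members with any count, in order of mean FPKM. The series runs from a mean of 1313 FPKM in Rpl41 downward, with the cisplatin libraries mostly above the vehicle libraries in the abundant members.

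Large and small subunit rows are given side by side, and the difference between them was not tested. The 55 large subunit rows tested showed a log2 fold change of 0.54 at the median, and 48 were higher, and the 32 small subunit rows had 0.48, with 29 higher. The fold change was at least 1.5 upward in 26 large and 9 small subunit rows. Both cisplatin libraries were above both vehicle libraries in 39 large and 23 small subunit rows. Among members with at least 1000 counts in all, the medians were 0.50 in 42 large and 0.50 in 27 small subunit rows. With the gene length correction the medians of the tested rows were 0.34 for the large and 0.18 for the small subunit.

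The stalk of the large subunit, which recruits elongation factors, is built from P0 and pairs of P1 and P2. Rplp0 (ENSRNOG00000001148) had 590 and 797 CPM in the vehicle and 909 and 1054 CPM in the cisplatin libraries, with a log2 fold change of 0.50 (standard error 0.30). Rplp1 on chromosome 8 had 10652 and 9788 counts in the vehicle and 13008 and 15380 counts in the cisplatin libraries, with a log2 fold change of 0.34 (standard error 0.26). The groups of both genes did not overlap. Rplp2 itself was listed with 1 and 1 counts in the vehicle and 4 and 3 counts in the cisplatin libraries, and was not tested. The counts of P2 stood under other rows, as described with the copies.

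Several members are known for functions outside the ribosome or in signalling. Rpsa, also known as the laminin receptor, had 448 and 563 CPM in the vehicle and 605 and 734 CPM in the cisplatin libraries, with a log2 fold change of 0.41 (standard error 0.26). Rpl11 and Rpl5, which bind 5S ribosomal RNA and can restrain the p53 ligase Mdm2, had log2 fold changes of 0.46 (standard error 0.24) and 0.29 (standard error 0.25). Rpl23, another Mdm2-binding protein, had 0.39 (standard error 0.23). The groups overlapped for Rpl5 and not for Rpl11 and Rpl23. Rps14 had a log2 fold change of 0.25 (standard error 0.21), which was -0.07 with the gene length correction. Rps6, the phosphorylation target of S6 kinases, was listed with 66 and 78 counts in the vehicle and 84 and 118 counts in the cisplatin libraries (log2 fold change 0.34, standard error 0.38), and another row on the same chromosome held most counts of this protein.

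Rows of paralogs that are known for restricted expression in other tissues had low counts. Rpl3l, the muscle form of L3, had 116 counts in vehicle replicate 1, 7 in vehicle replicate 2, and 17 and 2 in the cisplatin libraries, with a log2 fold change of -2.71 (standard error 1.30). Its counts followed the skeletal muscle markers, which were highest in vehicle replicate 1, and without that library its log2 fold change was 0.11. Rpl10l, the testis form of L10, had 22 counts in each vehicle library and 13 and 16 in the cisplatin libraries (log2 fold change -0.74, standard error 0.49). Rpl39l had 7 and 13 counts in the vehicle and 17 and 37 counts in the cisplatin libraries, with a log2 fold change of 1.28 (standard error 0.70).

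Other paralogs were better covered. Rpl22l1 had 1554 and 1084 counts in the vehicle and 1729 and 1780 counts in the cisplatin libraries, with a log2 fold change of 0.29 (standard error 0.18) that was -0.01 with the gene length correction. Rps27l, a p53 target, had 735 and 889 counts in the vehicle and 808 and 1383 counts in the cisplatin libraries, with a log2 fold change of 0.28 (standard error 0.36) that was -0.23 without cisplatin replicate 2. The groups overlapped in Rps27l, unlike Rps27, whose product it resembles. Rpl7l1, which is related to L7, had 572 and 748 counts in the vehicle and 537 and 748 counts in the cisplatin libraries, with a log2 fold change of -0.20 (standard error 0.33) that was 0.22 without vehicle replicate 2 and 0.08 without cisplatin replicate 1. The Rpl36al rows on chromosomes X and 10 had log2 fold changes of 0.72 (standard error 0.24) and 0.84 (standard error 0.35), and the Rps4x and Rps4y2 rows, both on chromosome 4 and both without an intron, 0.54 (standard error 0.29) and 0.67 (standard error 0.23).

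Many members look like annotated copies. In 27 of the 104 rows the gene length equals the span on the chromosome, so that no intron is annotated, and these rows held 1.15% of the counts of all members. Of these, 17 passed the filter. The highest log2 fold change of all, 2.38 (standard error 0.83), belonged to such a copy, the Rpl39 row on chromosome 14, with 3 and 9 counts in the vehicle and 20 and 50 counts in the cisplatin libraries. It lies within the span of Igfbp7 on the opposite strand, which had 16686 counts in all. The Rpl39 row on chromosome 18 had 3, 7, 18 and 14 counts in vehicle replicates 1 and 2 and cisplatin replicates 1 and 2, and the Rpl35a row on chromosome 6 had 3, 15, 11 and 46, with log2 fold changes of 1.5 (standard error 0.72) and 1.49 (standard error 1.04). Few counts stand behind these values.

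The 17 rows that did not pass the filter had at most 35 counts over the 4 libraries. Among them, 6 were listed at 0 in all, namely Rpl10a, Rpl23a, Rpl31l3 and 3 of the Rpl39 rows. The others were Rplp2, Rps27l3, Rpl22l2, Rps19l1, Rps17l, 1 row each of Rps29, Rpl38 and Rpl37, another Rpl39 row and 2 Rpl35a rows. Rpl10a and Rpl23a belong to ribosomes of every cell, so their listing at 0 is not read as a level.

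Counts of a ribosomal protein were therefore also summed over every protein-coding row whose description carries its name. There were 473 such rows under 82 protein names, 370 of them outside the name rule, and 70 of the names had more than 1 row, up to 35 rows. For 16 proteins the row with the most counts was not a member. In 9 of the 82 it had no annotated intron. S4 of the X chromosome form, for example, had its counts mostly in LOC100362640 on chromosome X, which RefSeq names Rps4x, with 7148 and 7288 counts in the vehicle and 8968 and 10966 counts in the cisplatin libraries. L10 stood under RGD1563861 with 5370, 5952, 10334 and 10906 counts in vehicle replicates 1 and 2 and cisplatin replicates 1 and 2. Under 1000 counts in all remained for 7 proteins, among them S26, L10a, L23a, L35a and L38.

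Summed by protein, the median log2 fold change was 0.50 over 81 proteins tested, with 77 higher and 4 lower. Both cisplatin libraries were above both vehicle libraries in 59 proteins (72.8%), where 20.7% of all genes in that table were. edgeR called 0 of these proteins, with 0.00683% of genes called, while 22 passed the unadjusted p with the 1.5-fold limit, all on the higher side, against 2.74% of genes. The 49 large subunit proteins had a median of 0.50 and the 32 small subunit proteins 0.49. In 61 of the 70 proteins with both values, summing moved the log2 fold change of the leading member by at most 0.1, and in 5 by more than 0.3.

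Those 5 were L7a, S19, L30, L38 and S27a, and rows of the same protein had different values in each of those described here. Rpl30 had 2798 and 2809 counts in the vehicle and 2648 and 3199 counts in the cisplatin libraries, which gave a log2 fold change of -0.08 (standard error 0.23) that was 0.11 without vehicle replicate 2 and 0.11 without cisplatin replicate 1. LOC100362027, a row on chromosome 10 without introns, carries the same protein name and had 492 and 675 counts in the vehicle and 1928 and 2818 counts in the cisplatin libraries, and the sum of the L30 rows had a log2 fold change of 0.50 (standard error 0.27). The groups overlapped in Rpl30 and did not in the sum.

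Rps19, which is mutated in an inherited anaemia, had 760 and 1583 counts in the vehicle and 1629 and 1041 counts in the cisplatin libraries, with a log2 fold change of -0.03 (standard error 0.47). LOC100910336 on chromosome 9 had 477 and 313 counts in the vehicle and 1131 and 1813 counts in the cisplatin libraries, and the sum over S19 rows was 0.69 (standard error 0.33). The direction of the Rps19 row alone turned under several settings, to 0.84 without vehicle replicate 2.

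The 2 Rpl7a rows lie on chromosome 3 with the same gene length. ENSRNOG00000049097 had 206 and 674 counts in the vehicle and 933 and 2222 counts in the cisplatin libraries, with a log2 fold change of 1.63 (standard error 0.75). ENSRNOG00000047737 had 767 and 195 counts in the vehicle and 233 and 229 counts in the cisplatin libraries, with a log2 fold change of -1.10 (standard error 0.52). The sum of the L7a rows gave 0.77 (standard error 0.33), so neither Rpl7a row stands for the protein.

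S27a, a fusion with ubiquitin, showed the same split. Rps27a had 7046 and 5799 counts in the vehicle and 8820 and 6423 counts in the cisplatin libraries (log2 fold change 0.11, standard error 0.22, and -0.20 with the gene length correction), while the row without introns Rps27a-ps1 had 1553 and 1249 in the vehicle and 2612 and 5540 in the cisplatin libraries. The sum had a log2 fold change of 0.45 (standard error 0.22). The P2 rows were less even still, since LOC100911575 had 1430 and 598 counts in the vehicle and 126 and 939 counts in the cisplatin libraries, LOC498555 had 899, 1078, 1700 and 1686 in the order vehicle 1 and 2, cisplatin 1 and 2, and the sum had a log2 fold change of 0.05 (standard error 0.25). The Rpl38 row with the most counts, on chromosome 8 and without introns, had 27, 10, 12 and 26 counts in that order (log2 fold change -0.04, standard error 0.66, and 0.63 without vehicle replicate 1), and the sum of L38 was 0.35 (standard error 0.45).

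**Figure D4:**
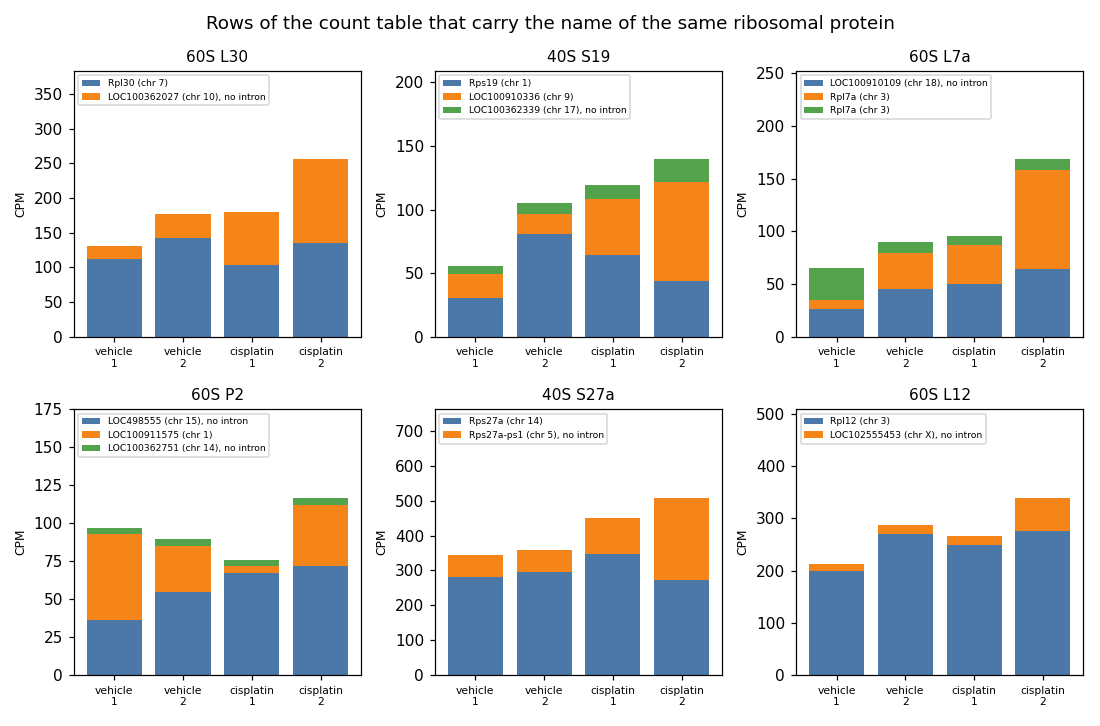
Stacked bars give the CPM of each row that carries the name of the protein above the panel and has at least 300 counts in all, in each library. The bars of Rpl30, Rps19 and Rps27a overlap between the groups while other rows of these proteins are higher in the cisplatin libraries, and the rows of L7a and P2 order the libraries differently.

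The remaining members with a log2 fold change below 0 were Rpl5l1 and a second Rps2 row. Rpl5l1 had 222 and 211 counts in the vehicle and 230 and 215 counts in the cisplatin libraries, which gave a log2 fold change of -0.11 (standard error 0.24) that was 0.04 without vehicle replicate 2. The Rps2 row on chromosome 5 had 15 and 15 counts in the vehicle and 8 and 11 in the cisplatin libraries (log2 fold change -0.79, standard error 0.58). Of the 10 rows below 0, only Rpl10l, Rps2 on chromosome 5 and Rpl7a ENSRNOG00000047737 had both cisplatin libraries below both vehicle libraries, where 21.2% of all genes tested did.

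Members are short genes, and the difference between the groups went with gene length in the whole table. The median length of the members tested was 612 bases, against 2371 bases over all genes tested. Over all 14719 genes, the log2 fold change had a Spearman's rho of -0.36 with gene length, and over the 63 well-covered members -0.22. Between the replicates of a treatment the rho over all genes was -0.04 and 0.01, whereas it was between -0.35 and -0.20 for the 4 pairs of libraries between treatments. Genes are not independent replicates and share the libraries. After the correction for length, 67 of the 87 members had a value above 0, and Rpl31, Rps27 and Rpl36 had log2 fold changes of 1.46, 1.04 and 0.99.

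**Figure D5:**
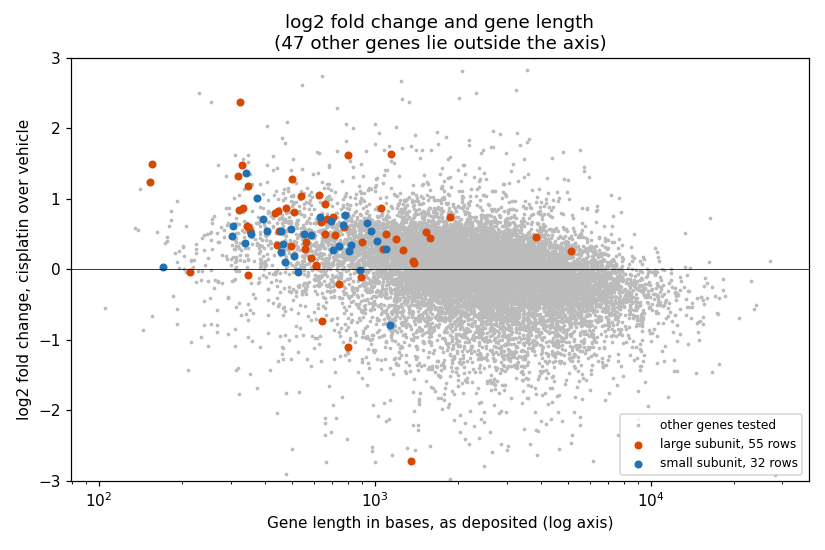
Each point is a gene tested, with its deposited gene length (log axis) against its log2 fold change, in orange and blue for the 55 large and 32 small subunit rows and in grey for other genes, 47 of which lie outside the axis. The grey cloud slopes downward with length, and most ribosomal protein rows lie at its short end and above 0.

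Other rows overlap 34 of the 104 members on the chromosome, and in 25 members rows of small nucleolar RNA genes lie within the span of the member. In 9 members the overlapping row is on the opposite strand. An overlapping row with over 100 counts was present in 10, among them Rpl31, where Tbc1d8 on the opposite strand had 1348 counts in all beside 13411 of Rpl31, and Rpl17, where RGD1562987 on the same strand had 10961. These are overlaps of spans on the chromosome, and whether exons are shared was not examined. Where they are, reads of the same strand cannot be told apart, nor those of opposite strands if strand was not used.

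Genes of the translation machinery outside the ribosome had medians closer to 0 than the members. With the gene length correction the medians were 0.13 for initiation factors and 0.07 for elongation and termination factors, beside 0.23 for the members. For other TOP mRNAs, ribosome biogenesis and mTOR signalling they were 0.03, -0.01 and 0.02. Of 38 initiation factors tested, 28 had a log2 fold change above 0, with a median of 0.19, where 49.1% of all genes tested were above 0. Both cisplatin libraries were on top in 17 of these (44.7%) and in 46.2% of elongation and termination factors, beside 20.6% of all genes tested. The share was 33.3% in other TOP mRNAs, 26.3% in ribosome biogenesis and 33.3% in mTOR signalling, and 71.3% in the members. The highest were Eif1b at 0.73 (standard error 0.21), Eif3i at 0.63 (standard error 0.19) and the helicase Eif4a1 at 0.53 (standard error 0.21), and the lowest were Eif2s3 at -0.26, Eif3a at -0.41 and the scaffold Eif4g1 at -0.59 (standard error 0.19). Of 13 elongation and termination factors, 10 were above 0 with a median of 0.09, from 0.60 (standard error 0.30) in Eef1a2, the neuronal and muscle form of the factor that delivers tRNAs, 0.52 in Gspt2 and 0.44 in Eif5a to -0.24 in Etf1, -0.33 in Eef2k and -2.47 (standard error 0.79) in Gspt1. Gspt1, which encodes a release factor, had 138 and 433 counts in the vehicle and 92 and 31 counts in the cisplatin libraries.

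Other mRNAs known to carry a TOP tract had a median of 0.08 over 15 rows, 10 of them above 0. Tpt1 had 13292 and 12537 counts in the vehicle and 22795 and 19476 counts in the cisplatin libraries, with a log2 fold change of 0.56 (standard error 0.26), and was followed by a small Eif3h row at 0.40 and Eef1b2 at 0.33. The lowest were Eif4b at -0.08, Nap1l1 at -0.15 and the other Eif3h row at -0.18. Among rows of ribosome parts outside the name rule were Gnb2l1, also called Rack1, with 5530 and 5936 counts in the vehicle and 8215 and 9291 counts in the cisplatin libraries (log2 fold change 0.46, standard error 0.25), and Fau, the source of S30, with 18, 36, 36 and 49 counts in vehicle replicates 1 and 2 and cisplatin replicates 1 and 2.

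Ribosome biogenesis genes had a median of 0.01 over 38 rows, with 20 above 0. Nop10, part of the complex that modifies ribosomal RNA, had 1407 and 1282 counts in the vehicle and 3005 and 2651 counts in the cisplatin libraries, which gave a log2 fold change of 0.93 (standard error 0.18). Nhp2, of the same complex, had 7 and 9 counts in the vehicle and 889 and 15 in the cisplatin libraries, so its log2 fold change of 5.60 (standard error 1.83) rested on cisplatin replicate 1. Polr1e had 0.47, and the lowest were Rrs1 at -0.26, Tsr1 at -0.33 and Ddx21 at -0.42.

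In the mTOR and S6 kinase pathway, which acts on TOP mRNAs and on Rps6, the median was -0.00 over 18 genes, with 9 above and 9 below 0. Tsc1, an inhibitor of the pathway, had 507 and 348 counts in the vehicle and 205 and 194 counts in the cisplatin libraries, with a log2 fold change of -1.22 (standard error 0.22). Rictor, a part of mTOR complex 2, had -1.08 (standard error 0.31) and Eif4ebp2, a translational repressor that mTOR inactivates, -0.98 (standard error 0.25), and the highest were Rps6kb2 at 0.27, Rheb at 0.27 and Akt1 at 0.25. Over the 113 genes of these lists edgeR called 0 and DESeq2 called 3, with Nop10 higher and Gspt1 and Tsc1 lower, and 12 had an unadjusted p under 0.05 in edgeR, where 0.652% of genes were called by DESeq2 and 9.57% had such a p.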

How the data were processed

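The authors deposited whole-number read counts per gene with gene length in bases, and FPKM made from the same reads. Per the submitters' processing notes, the tools named were HISAT2 2.0.5, StringTie 1.3.3b, featureCounts 1.5.0-p3, DESeq2 1.20.0, edgeR 3.22.5 and GATK 4.1.4.1; the study's methods name the Rnor_6.0 build, and coordinates of genes are those of the deposited table. Whether counting used strand is not given in the sources used here.

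Samples were grouped by their labels. Protein-coding rows were filtered with filterByExpr, scaled by TMM and tested with the quasi-likelihood test of edgeR 4.0.16 in R 4.3.3 with Benjamini-Hochberg adjustment over all genes tested, and calls needed an adjusted p under 0.05 with a 1.5-fold difference. Positive log2 fold changes mean higher counts after cisplatin. The standard error is that of the log2 fold change. Alternatives used DESeq2 1.42.0, limma 3.58.1 on log2(FPKM + 1) and log2(FPKM + 0.1), other normalisations and filters, a lowess offset on gene length (span 0.3), each library left out, and copies summed. Summaries used Python 3.11.15 and pandas 2.3.3. The scripts were tested on simulated data.

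Members and lists were chosen with earlier results of these data known. Named genes were the 8 members highest in mean FPKM, the 8 highest log2 fold changes, those below 0, paralogs, members outside the filter, a fixed set with known roles, and the 3 highest and 3 lowest of each translation list; others are marked. The gene lists were written from general knowledge. Library totals limit the precision of low rows, and 2 libraries per group that of every difference. Some genes are not reported here.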

Additional observations from a re-analysis of the deposited data

How the results depend on the processing

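Titles number the replicates alike in both groups, while the sample descriptions number them differently, as Veh1, Veh2, Cis4 and Cis6. Nothing in the labels says that a number marks a shared litter, batch or day. The difference of replicate 2 from replicate 1 had a Pearson's r of 0.444 between the treatments over all genes, but with 2 pairs the numbers were not taken as pairing. With the replicate number as a block in edgeR, 28 members were called, 27 higher and 1 lower, where 3.59% of all genes were called higher and 11.3% in either direction, and the common dispersion was 0.0209 in place of 0.0711; with block and gene length correction 14 were called, 12 higher and 2 lower, where 1.88% of all genes were called higher and 7.35% in either direction. For the translation lists these fits called 10 and 7 genes.

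DESeq2 called 1 member and 3 genes of the translation lists, where it called 0.652% of all genes tested in either direction. An unadjusted p with the fold change called 22 members and 10 genes of the lists, where 8.12% of all genes tested passed in either direction. The gene length correction gave a median of 0.23 for the members, 0.18 for the small subunit and 0.24 for summed copies, and 36 members with both cisplatin libraries above both vehicle libraries; with the block as well the medians were 0.24 for the members and 0.17 for the small subunit. The cause of these moves was not tested. Leaving out each library gave medians of 0.32 to 0.69 for the members, 0.39 to 0.73 for the large and 0.27 to 0.66 for the small subunit, and 0 to 1 calls in the translation lists. The narrow window for the pyrimidine run, chosen after seeing the data as were the alternatives with summed copies and the other denominators of the share, gave 54.2%. Among 48 members named by the rule or after their values were seen, 42 of 795 values under an alternative had the other sign, in 15 genes. Rows with few counts, such as copies of Rpl39 and Rpl35a, and 2 libraries per group limit all of these values.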
